A study of Mus musculus with 6 samples.

Results

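Major histocompatibility complex (MHC) class I molecules were followed at the transcript level in lung endothelial cells (EC), the cells that line blood vessels, of infant and young adult mice. The 8 genes described here are the light chain gene B2m and the heavy chain genes H2-K1, H2-D1, H2-Q4, H2-Q6, H2-Q7, H2-T23 and H2-M3. They were chosen by gene symbol from the 12623 genes of the deposited expression table. This rule uses no measured value, although the set was proposed with earlier results of these data in view. The 8 genes took 10 of the 17241 transcript entries, because H2-Q7 was listed with 3 transcripts.

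A class I molecule is a heavy chain paired with beta-2-microglobulin, the product of B2m, and with a short peptide cut from proteins of the same cell. Cytotoxic T cells and natural killer cells read this complex on the cell surface. Endothelial cells carry class I constitutively and raise it when interferons act on them. H2-K1 and H2-D1 encode the classical heavy chains (class Ia), which present a broad range of peptides. The other heavy chains are nonclassical (class Ib), with narrower peptide repertoires. H2-Q6 and H2-Q7 belong to the genes behind the surface antigen Qa-2, H2-T23 encodes Qa-1, which displays signal peptides of other class I chains to natural killer cells, and H2-M3 binds N-formylated peptides. H2-Q4 lies in the same Q cluster as H2-Q6 and H2-Q7.

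Lung EC of C57BL/6N mice were sorted and their RNA was sequenced, with 3 libraries from infant mice and 3 from young adult mice, described as separate biological replicates. The sort kept living cells that bore CD31 and CD34 and lacked PTPRC, LYVE1, LY76 and PDPN. The comparison asked how transcript levels change between growing and resting lung vessels. The values are RPKM, reads per kilobase of transcript, scaled to the mapped reads of the library, whose read depth is unknown. A lower level in these bulk libraries cannot be told apart from fewer cells that carry the transcript.

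Endothelial transcripts were abundant in all 6 libraries, with Pecam1, which encodes CD31, between 309.8 and 657.8 RPKM. Ptprc stood between 3.0 and 7.0 RPKM in infant and between 0.2 and 1.8 RPKM in young adult libraries. Lyve1 was present despite the sort, at 68.6 to 171.4 RPKM in infant and 252.9 to 396.4 RPKM in young adult libraries. Infant libraries also held transcripts of other cell types. The summed RPKM of 9 fibroblast markers ran from 320.3 to 1271.5 in infant libraries and reached at most 21.9 in young adult libraries, with 8 of 9 called lower in young adult EC. That of 7 erythroid markers ran from 9655.9 to 79864.4 and from 822.2 to 1350.7, with 7 of 7 called lower. Of 11 epithelial markers, 4 were called lower, and their sums overlapped between 6513.6 and 11381.9 in infant and 1818.7 and 8385.5 in young adult libraries. Infant replicate 2 stood apart, with the lowest fibroblast and erythroid sums of its group. The study's methods name female mice, yet Y-linked Ddx3y read 16.5 to 21.9 RPKM in the infant libraries and 0 in the young adult libraries. The X-linked Xist read 7.6 to 8.7 RPKM in infant and 12.5 to 15.6 RPKM in young adult libraries. Whether the infant libraries held both sexes was not tested, and age and sex of the animals cannot be told apart here. The sex-linked genes were looked up after the values had been seen.

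The promoters of the 8 genes are shown first, because the class I genes share a set of regulatory elements close to their start sites. In the textbook layout, an NF-kB site and an interferon-stimulated response element lie upstream of the SXY module, which holds the X2 box and the Y box and is read by the class I transactivator NLRC5 through the factors RFX, CREB/ATF and NF-Y. The sequences are the gene strand, 5′ to 3′, from RefSeq on GRCm38.p6 (mm10 coordinates). Each begins 30 bases before the interferon element and ends 95 bases after its first base or at the last base before the annotated start. Capitals mark matches to the NF-kB consensus, the interferon element, the X2 box and the Y box.
B2m, chr2:122147518-122147642, plus strand: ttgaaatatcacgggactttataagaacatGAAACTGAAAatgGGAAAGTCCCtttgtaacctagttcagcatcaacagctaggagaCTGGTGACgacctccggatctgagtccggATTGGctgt
H2-K1, chr17:34000348-34000467, minus strand: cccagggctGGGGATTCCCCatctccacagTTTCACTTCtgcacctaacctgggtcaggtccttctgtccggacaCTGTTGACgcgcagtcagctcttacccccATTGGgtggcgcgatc
H2-D1, chr17:35262914-35263038, plus strand: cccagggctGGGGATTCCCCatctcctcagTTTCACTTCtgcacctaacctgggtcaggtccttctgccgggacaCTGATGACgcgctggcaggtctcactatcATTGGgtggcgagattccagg
H2-Q4, chr17:35379434-35379558, plus strand: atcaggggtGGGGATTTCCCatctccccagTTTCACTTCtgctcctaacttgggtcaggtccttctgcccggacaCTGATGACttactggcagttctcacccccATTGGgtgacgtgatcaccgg
H2-Q6, chr17:35424668-35424792, plus strand: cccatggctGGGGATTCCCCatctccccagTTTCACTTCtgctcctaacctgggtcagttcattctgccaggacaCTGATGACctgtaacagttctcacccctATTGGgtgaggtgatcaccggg
H2-Q7, chr17:35439012-35439136, plus strand: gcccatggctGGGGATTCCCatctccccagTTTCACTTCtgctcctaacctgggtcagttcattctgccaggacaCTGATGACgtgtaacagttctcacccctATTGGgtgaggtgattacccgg
H2-T23, chr17:36032731-36032855, minus strand: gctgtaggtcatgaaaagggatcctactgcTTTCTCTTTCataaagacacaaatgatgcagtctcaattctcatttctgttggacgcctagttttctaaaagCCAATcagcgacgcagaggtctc
H2-M3, chr17:37270103-37270227, plus strand: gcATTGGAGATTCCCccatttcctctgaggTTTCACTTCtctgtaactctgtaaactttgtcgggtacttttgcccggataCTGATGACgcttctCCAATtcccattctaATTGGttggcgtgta

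The elements were searched by letters on both strands in the 300 bases from 250 before to 50 after each of 32851 annotated starts. An interferon element was read in all 8 promoters. B2m and H2-T23 held the longer form, GAAA repeated after any 2 bases, which occurs in 3.44% of all promoters. The other 6 held the shorter form GAANNGAAA, which lacks the fourth letter and occurs in 7.52%. The forms do not contain each other. The NF-kB consensus was read in 7 of 8 promoters, all but that of H2-T23, against 8.46% of all promoters, and in H2-M3 it overlapped with a Y box. The X2 box, searched as CTGNTGAC, was read in 8 of 8 promoters against 4.98%, and the Y box CCAAT in 8 of 8 against 37.4%. The X2 letters were read from these promoters, so that their presence in them is no independent count. The first base of the X2 box lay 29 bases before that of the next reversed Y box, read as ATTGG, in B2m, H2-K1, H2-D1, H2-Q4 and H2-M3, and 28 bases before it in H2-Q6 and H2-Q7. This pair at either spacing, itself taken from these genes, was found in 13 of the 32851 promoters (0.0396%), which include those 7. In H2-T23 the X2 letters stood at base -19 on the opposite strand and no such pair was read. The printed stretches of H2-Q6 and H2-Q7 were 96.0% identical, those of H2-K1 and H2-D1 86.4%. B2m reached at most 52.1% with any heavy chain gene. Of the heavy chain genes, H2-T23 reached at most 53.1% and H2-M3 at most 66.2% with any other of the 8 genes. The TATA letters TATAAA were read in 4 of 8 promoters, in B2m on the opposite strand and in H2-K1 after the annotated start, against 13.6% of all promoters. For H2-K1 more than 1 start was listed among the promoters, and the upstream one of these was used. The RefSeq gene reaches further upstream, so that the printed bases lie inside its span, although they precede the GENCODE transcripts of the gene. A match in letters is a description of the sequence and not a bound site.

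**Figure D1:**
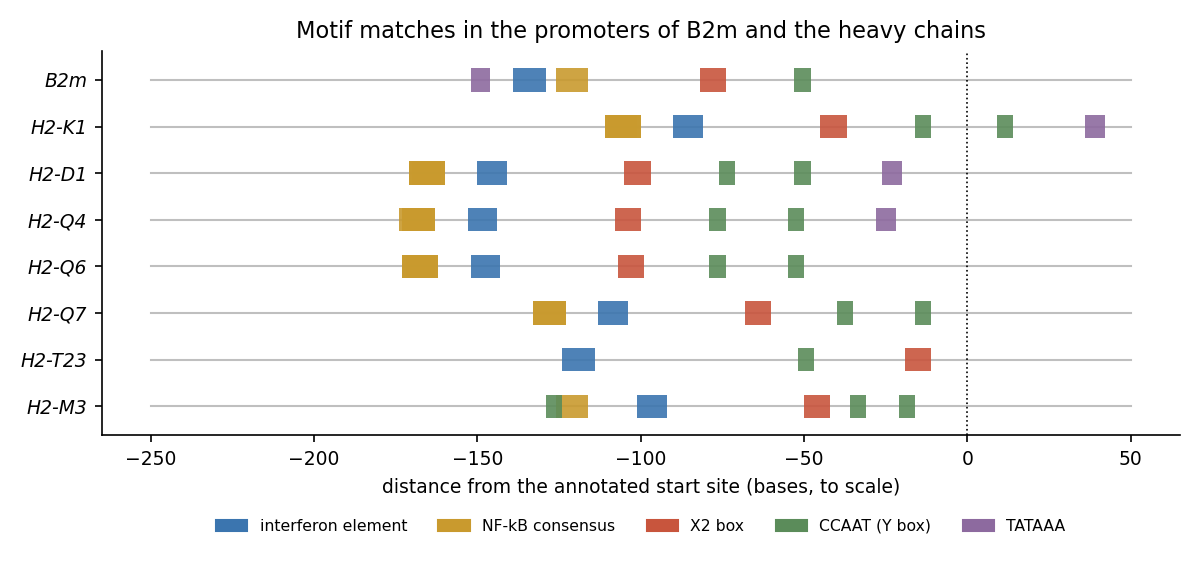
Matches to 5 motifs in the 300-base promoter of each gene, drawn to scale against the distance in bases from the annotated start site (dotted line), with 1 line per gene and bars coloured by motif. The interferon element and the X2 and Y boxes follow each other in this order in 7 genes, and H2-T23 differs with its X2 letters at base -19.

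All 8 genes were higher in young adult than in infant EC, by 3.01-fold to 20.7-fold in mean RPKM. A gene was called when its Benjamini-Hochberg adjusted p over all genes was under 0.05 and its log2 fold change was beyond 0.81 in either direction, by limma on log2(RPKM + 1). By this rule 8 of 8 were called higher, where 3.33% of the 12458 genes tested were called higher and 8.1% lower. In 8 of 8 every young adult library lay above every infant library, which held for 16.4% of all genes. The median log2 fold change was 2.03 for the 8 genes and -0.07 for all genes. The calls among all genes were mostly lower ones (415 higher, 1009 lower), and this balance changed with the scaling. Quantile normalization gave 532 higher and 611 lower, rescaling without globin genes 297 and 1385, and scaling to endothelial markers 184 and 2443, with 8 of 8 class I genes called higher each time. Under limma treat, a test of whether the change exceeds the fold threshold, H2-K1, H2-Q4, H2-Q6 and H2-Q7 were still called and the other 4 were not.

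The light chain gene B2m (chr2:122147687-122153082) had 474.7, 1152.6 and 643.2 RPKM in the infant libraries, in the order of their replicate numbers, and 2796.6, 2248.8 and 3460.1 RPKM in the young adult libraries. The groups did not overlap, and infant replicate 2 was the highest of its group. Mean levels were 756.8 ± 352.9 and 2835 ± 606.6 RPKM (SD, n = 3 each). The log2 fold change was 1.98 ± 0.35 (SE, adjusted p = 0.00847, limma). By RPKM, B2m ranked between 16 and 38 of the 12623 genes in infant libraries and between 2 and 5 in young adult libraries.

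The classical heavy chain gene H2-D1 (chr17:35263094-35267497) was the most abundant heavy chain in every library. It read 396.4, 852.4 and 395.9 RPKM in infant EC and 1828.4, 2045.7 and 2701.3 RPKM in young adult EC. The log2 fold change was 2.08 ± 0.33 (SE, adjusted p = 0.00612, limma), and the gene ranked 6 to 8 of all genes in the young adult libraries. The other classical gene, H2-K1 (chr17:33996012-34000619), read 72.4, 183.2 and 81.9 RPKM in infant EC and 556.8, 531.5 and 786.7 RPKM in young adult EC. Its log2 fold change was 2.57 ± 0.34 (SE, adjusted p = 0.00337, limma), from 112.5 ± 61.4 to 625.0 ± 140.6 RPKM. Infant replicate 2 held more than the other infant libraries of both transcripts, and neither gene overlapped between the ages.

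The Qa-2 genes differed most between the ages. H2-Q6 (chr17:35424850-35430055) read 3.3, 7.4 and 4.7 RPKM in infant EC and 94.7, 84.9 and 138.7 RPKM in young adult EC. Its mean went from 5.13 ± 2.08 to 106.1 ± 28.7 RPKM, and the log2 fold change was 4.15 ± 0.27 (SE, adjusted p = 0.000362, limma). H2-Q7 (chr17:35439140-35443773) read 3.8, 12.5 and 5.2 RPKM in infant EC and 110.7, 93.3 and 158.1 RPKM in young adult EC in its most abundant transcript. Its log2 fold change was 4.01 ± 0.37 (SE, adjusted p = 0.00102, limma). The other H2-Q7 transcripts gave 3.98 ± 0.37 and 3.99 ± 0.38. The lowest young adult library exceeded the highest infant library for both genes. In rank, H2-Q6 moved from between 5677 and 8603 to between 306 and 540 of all genes, and H2-Q7 from between 3928 and 8127 to between 256 and 474.

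Values of H2-Q6 and H2-Q7 are not fully separate measurements, since the genes are close copies. Of the 882 stretches of 100 bases in the H2-Q6 transcript, 166 were also present in H2-Q7, and 19.3% of them occurred in some other gene. For H2-Q7 this share was 17.7%, with 166 of 1320 stretches in H2-Q6 and 67 in H2-Q5. The study's alignment allowed up to 10 mismatches per read. Whether reads outside these stretches also fell on the wrong copy was not tested. Each Qa-2 value is uncertain in its split between the genes. The same share was 7.28% for H2-T23, 4.64% for H2-D1 and 2.66% for H2-Q4, and 0 for B2m, H2-K1 and H2-M3.

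H2-Q4 (chr17:35379617-35384674) was the least abundant of the 7 heavy chain genes at both ages. It read 0.8, 1.4 and 0.8 RPKM in infant EC and 5.8, 5.2 and 9.2 RPKM in young adult EC. The ratio of the means was 6.73, while the log2 fold change with the pseudocount of 1 was 1.93 ± 0.21 (SE, adjusted p = 0.00164, limma). The pseudocount of 1 is as large as the infant mean and understates this fold change, which ran from 0.95 with a pseudocount of 5 to 2.63 with a pseudocount of 0.1.

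The smallest differences were those of H2-T23 and H2-M3. H2-T23 (chr17:36029977-36032701), which encodes Qa-1, read 130.5, 284.0 and 128.7 RPKM in infant EC and 521.9, 494.3 and 656.4 RPKM in young adult EC. Its log2 fold change was 1.71 ± 0.31 (SE, adjusted p = 0.00924, limma). H2-M3 (chr17:37270234-37274485) read 12.4, 23.7 and 12.2 RPKM in infant EC and 43.7, 47.5 and 54.3 RPKM in young adult EC. Its log2 fold change was 1.59 ± 0.24 (SE, adjusted p = 0.00472, limma). Mean RPKM rose by 3.08-fold for H2-T23 and by 3.01-fold for H2-M3, and neither overlapped between the ages.

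**Figure D2:**
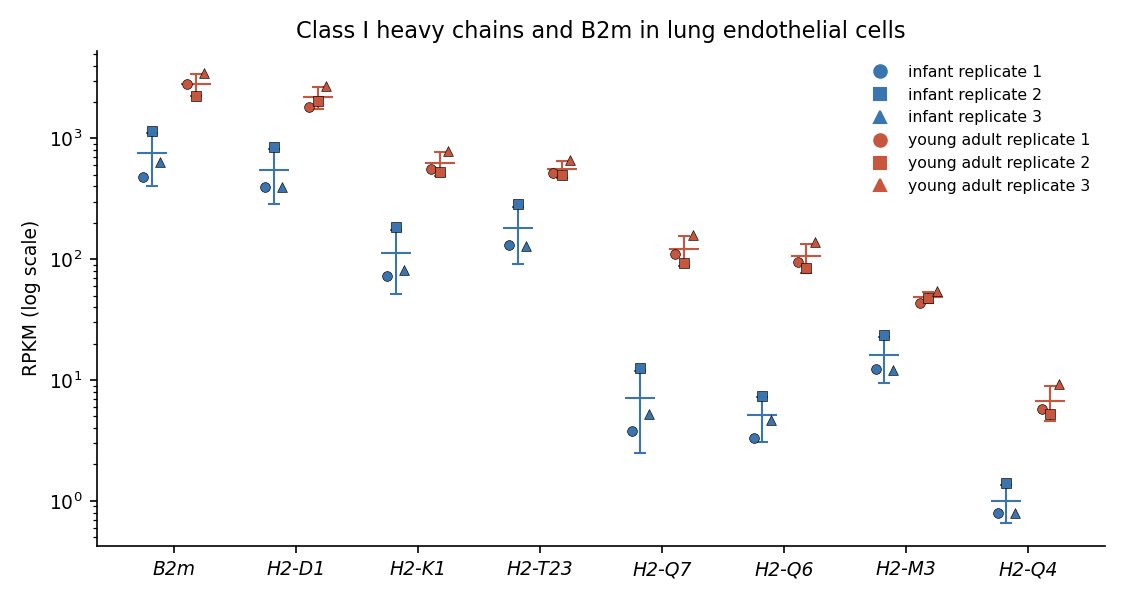
RPKM on a log scale of B2m and the 7 heavy chain genes, ordered by their young adult mean, with 1 point per library, shaped by replicate number, and bars for mean ± SD (n = 3 per age). Every young adult point lies above every infant point of its gene, and infant replicate 2 is the highest infant point for each gene.

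Infant replicate 2 was the highest infant library for 8 of 8 genes. Its RPKM was up to 2.78 times (H2-Q7) the mean of the other infant libraries. The same library had the lowest fibroblast marker sum (320.3 against 880.5 and 1271.5 RPKM), the lowest mural marker sum (68.2 against 232.0 and 233.2 RPKM) and the highest endothelial marker sum of its group (5792 against 4282 and 3986 RPKM). Its leukocyte marker sum, mostly from Lyz2, was the highest of the infant libraries (533.9 against 339.8 and 506.6 RPKM). Its Ptprc level was the lowest of them (3.0 against 4.2 and 7.0 RPKM). It also had the highest epithelial marker sum of the infant libraries (11381.9 against 6513.6 and 8486.4 RPKM). The part of these in the levels of the class I genes was not tested. Without this library the log2 fold changes of the 8 genes were larger, at 2.33 for B2m, 2.98 for H2-K1 and 4.44 for H2-Q7, and 8 of 8 were called. The 14 endothelial markers had a geometric mean of 204.3 RPKM in infant and 286.6 RPKM in young adult libraries. After each library was scaled to that mean, a scaling chosen after the values were seen, the log2 fold changes were 1.48 for B2m, 2.07 for H2-K1, 3.70 for H2-Q6 and 1.12 for H2-M3, the smallest of the 8.

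Leukocytes are rich in class I transcripts, so their markers are given beside the result. Of 16 leukocyte markers 8 were called, all lower in young adult EC, with a median log2 fold change of -1.46. Their summed RPKM was 339.8, 533.9 and 506.6 in infant libraries and 141.5, 312.4 and 560.8 in young adult libraries, so that the ages overlapped. Within each age, the library with the highest leukocyte sum, infant replicate 2 and young adult replicate 3, also had the highest level of 8 of 8 class I genes. This match rests on Lyz2, since Ptprc was lowest of the infant libraries in infant replicate 2. Between the ages, young adult replicate 1 had the lowest leukocyte sum of all libraries and a B2m level of 2796.6 RPKM. S100a8 was listed at 0 in young adult replicates 1 and 2. The part of leukocyte transcripts in the class I levels was not tested.

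The order of the genes by level changed at 2 places. In infant EC it was B2m, H2-D1, H2-T23, H2-K1, H2-M3, H2-Q7, H2-Q6 and H2-Q4, and in young adult EC B2m, H2-D1, H2-K1, H2-T23, H2-Q7, H2-Q6, H2-M3 and H2-Q4. Each gene exceeded the next in 3 of 3 libraries of its group. The ranges of neighbours overlapped between libraries for B2m and H2-D1, for H2-T23 and H2-K1 and for H2-Q6 and H2-Q7 at both ages, and for H2-M3 and H2-Q7 in infant EC. The order of these neighbours thus rests on the comparison within libraries. The log2 ratio of H2-K1 to H2-T23 was -0.71 ± 0.12 at the infant age and 0.15 ± 0.09 at the young adult age (SD, n = 3 each). The difference of 0.86 is a description of the changed order, which was seen first, and was not tested.

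Summed over the heavy chains, mean RPKM was 4.20-fold higher in young adult EC, against 3.75-fold for B2m. The 7 heavy chain genes summed to 619.6, 1364.6 and 629.4 RPKM in infant EC and to 3162, 3302.4 and 4504.7 RPKM in young adult EC. The log2 ratio of this sum to B2m was 0.20 ± 0.21 at the infant age and 0.37 ± 0.19 at the young adult age (SD, n = 3 each). The difference of 0.17 was smaller than the spread between libraries (exact two-sided permutation p = 0.5). With 3 against 3 libraries, 0.1 is the smallest p that this test can give. Relative to B2m, H2-Q6 was higher in young adult EC by 2.43 on the log2 scale, H2-Q7 by 2.25, H2-Q4 by 0.77 and H2-K1 by 0.60, each without overlap (exact permutation p = 0.1, adjusted over 7 genes p = 0.175). H2-D1 changed by 0.10 (exact permutation p = 0.7, adjusted p = 0.7), H2-T23 by -0.27 (p = 0.2, adjusted p = 0.28) and H2-M3 by -0.33 (p = 0.3, adjusted p = 0.35) relative to B2m.

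The class Ib share of the summed heavy chain RPKM was 24.2% ± 0.139 in infant libraries and 23.03% ± 1.36 in young adult libraries (SD, n = 3 each, exact two-sided permutation p = 0.4). With all transcripts summed, which counts H2-Q7 3 times, the difference turned from -1.15 to 2.21 percentage points (exact permutation p = 0.1). Within the class Ib genes, H2-T23 went from 20.8% to 15.3% of all heavy chain RPKM and H2-M3 from 1.89% to 1.34%, while H2-Q6 went from 0.607% to 2.88% and H2-Q7 from 0.785% to 3.28%. Among the classical genes, H2-D1 stood at 63.1% and 59.9% and H2-K1 at 12.7% and 17.1%. The log2 ratio of H2-Q6 plus H2-Q7 to H2-K1 plus H2-D1 was -5.78 ± 0.24 at the infant age and -3.65 ± 0.18 at the young adult age, which amounts to 2.13 or 4.38-fold (exact two-sided permutation p = 0.1, the smallest possible).

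**Figure D3:**
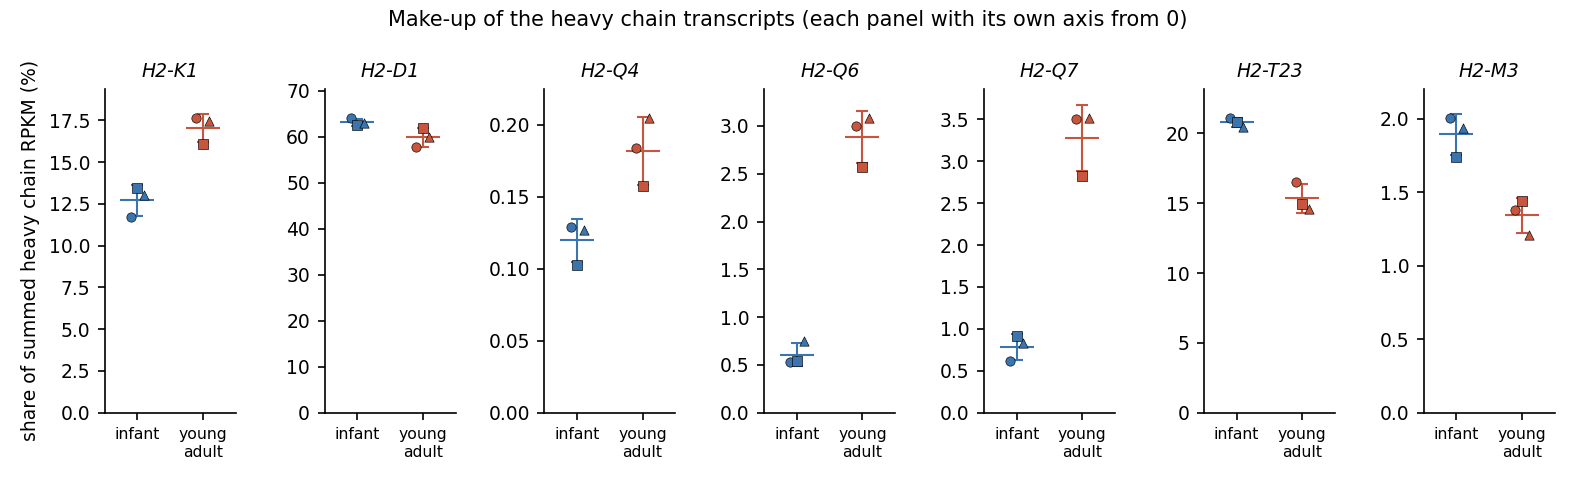
Share of each heavy chain gene in the summed heavy chain RPKM of a library, in percent, with 1 point per library and bars for mean ± SD (n = 3 per age) and with an axis from 0 of its own in each panel. H2-Q6 and H2-Q7 rise to 2.88% and 3.28% on average, and H2-T23 and H2-M3 go down to 15.3% and 1.34%.

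Peptides for class I are cut by the proteasome, carried into the endoplasmic reticulum by the TAP transporter and loaded there with the help of chaperones. The 5 immunoproteasome genes tested, whose products replace or activate parts of the standard proteasome, were all called higher in young adult EC, with a median log2 fold change of 1.43. Psmb9, a catalytic subunit, read 13.9, 29.6 and 19.5 RPKM in infant EC and 80.5, 71.0 and 97.4 RPKM in young adult EC, with a log2 fold change of 1.98 ± 0.25 (SE). Psmb8, another catalytic subunit, read 20.8, 38.5 and 22.8 RPKM in infant EC and 82.2, 78.6 and 117.7 RPKM in young adult EC. The catalytic subunit Psmb10 had a log2 fold change of 1.43, and the activator subunits Psme2 and Psme1 were at 1.05 and 0.97. Of 10 genes of peptide loading and trimming, 4 were called, all higher. These were the transporter subunits Tap1 (3.14-fold in mean RPKM) and Tap2 (1.93-fold), tapasin Tapbp (2.07-fold) and the tapasin-related editor Tapbpl (2.43-fold). After scaling to endothelial markers only Tap1 of these 4 was still called, and limma treat called 0, with 2 (Tap1 and Tapbpl) at an unadjusted p under 0.05. Tap1 read 12.0, 20.8 and 11.3 RPKM in infant EC and 39.7, 36.2 and 62.7 RPKM in young adult EC. The trimming peptidase Erap1, at a log2 fold change of 0.60 (adjusted p = 0.016, limma), stayed below the fold threshold. The general chaperones Calr, Canx, Pdia3 and Hspa5 had log2 fold changes between -0.26 and 0.10 and were not called.

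Among the 14 regulators of class I transcription reported here, 4 were called, all higher, with a median log2 fold change of 0.07. The called genes were Nlrc5, the class I transactivator, at 2.34 ± 0.32 (SE, adjusted p = 0.00339, limma), and Stat2, Irf9 and Irf1, which act in interferon signalling. The ratios of mean RPKM were 2.41 for Stat2, 2.20 for Irf9 and 2.05 for Irf1. After scaling to endothelial markers, and under limma treat, only Nlrc5 of these 4 was still called. Nlrc5 read 0.6, 2.5 and 0.8 RPKM in infant EC and 9.1, 7.7 and 13.9 RPKM in young adult EC, without overlap. Irf9 read 23.2, 40.2 and 22.9 RPKM in infant EC and 69.1, 54.4 and 66.6 RPKM in young adult EC. The DNA-binding partners of NLRC5 at the SXY module were not called. Rfx5, Rfxap, Rfxank, Nfya, Nfyb, Nfyc and Creb1 had log2 fold changes between -0.32 and 0.08, and Rfx5 was at 1.7 ± 0.265 RPKM in infant and 1.43 ± 0.252 RPKM in young adult EC. The NF-kB subunit Rela was at 0.51 (adjusted p = 0.0188, limma), under the fold threshold.

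**Figure D4:**
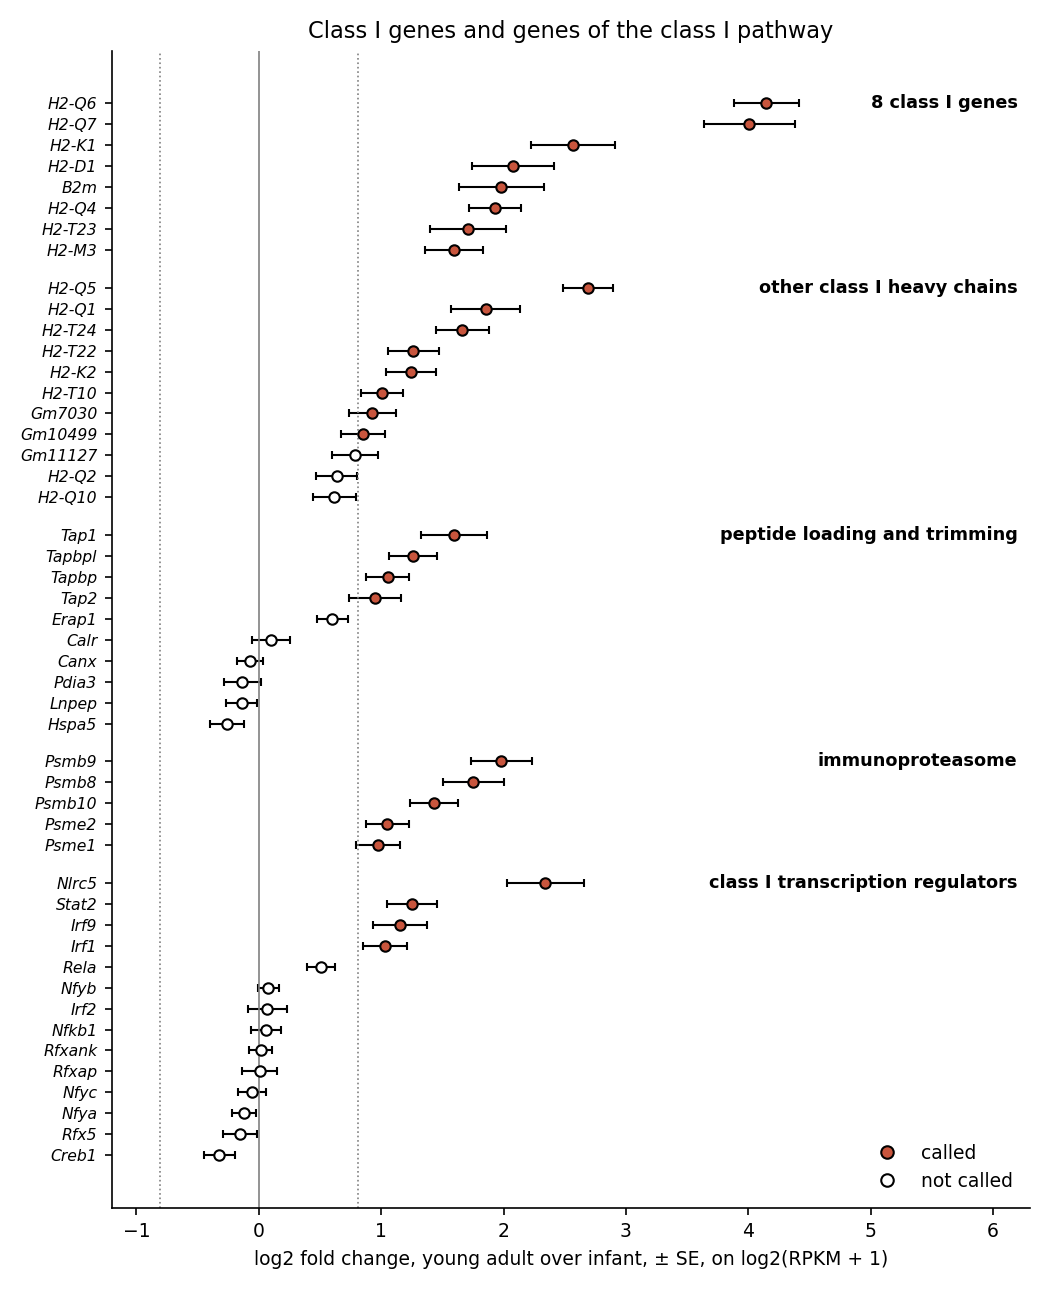
Log2 fold change of young adult over infant EC ± SE (limma on log2(RPKM + 1), n = 3 per age) for the 8 class I genes and for 4 lists of related genes, with filled points for called genes and dotted lines at the fold threshold. The 8 class I genes lie between 1.59 and 4.15, the 5 immunoproteasome genes between 0.97 and 1.98.

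Other class I heavy chain genes and pseudogenes were also higher in young adult EC where they were called. Of 34 listed, 14 were in the table and 11 were tested, of which 8 were called, all higher, with a median log2 fold change of 1.01. H2-Q5 went from 1.0, 1.9 and 0.8 RPKM to 10.8, 12.9 and 16.1 RPKM, with a log2 fold change of 2.69 ± 0.21 (SE). H2-Q1, H2-T24 and H2-T22 followed at 1.85, 1.66 and 1.26, and H2-K2, H2-T10, Gm7030 and Gm10499 were called at 1.24 or less. H2-Q2, H2-Q10 and Gm11127 had log2 fold changes between 0.62 and 0.79 and were not called. Gm10499, H2-Q2 and H2-Q10 reached 1 RPKM, and so were tested, only through young adult libraries, where they were higher. With a filter on mean RPKM 7 instead of 8 were called. H2-Bl, H2-M2 and Gm8909, under 1 RPKM in every library, were not tested. With a pseudocount of 5, or after scaling to endothelial markers, 4 of the 8 calls were left. Most of these genes are close relatives of the 8 genes above, and shared reads can move their values together. H2-Q8 and H2-Q9 were not analysed here.

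Class I-like genes, whose products share the fold but serve other tasks, were mostly not called. Their median log2 fold change was 0.13. Of 7 tested, 1 was called, where 3.33% of all genes tested were called higher and 8.1% lower. This was Hfe, a regulator of iron uptake, higher in young adult EC at 1.09 (adjusted p = 0.00597, limma). Fcgrt, the neonatal Fc receptor, which also pairs with beta-2-microglobulin, read 89.9, 64.9 and 94.3 RPKM in infant EC and 47.5, 51.2 and 54.7 RPKM in young adult EC. Its log2 fold change was -0.67 (adjusted p = 0.0197, limma), short of the fold threshold. Cd1d1, which presents lipids, and Mr1, which presents vitamin B metabolites, were at 0.13 and -0.06 and were not called.

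Of 9 class II genes tested, 6 were called, all higher, with a median log2 fold change of 1.67. Ciita, the class II transactivator, was at 0.6, 0.5 and 0.8 RPKM in infant EC and 4.7, 3.1 and 7.2 RPKM in young adult EC. It reached 1 RPKM, and so was tested, only through the young adult libraries, where it was higher. H2-Ab1, a class II beta chain, rose by 2.32 on the log2 scale, whereas the invariant chain Cd74 overlapped between the ages with a log2 fold change of 0.06 ± 0.43 (SE). Unlike the class I genes, neither Ciita nor H2-Ab1 was highest of its group in infant replicate 2, at 0.5 and 9.3 RPKM.

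The genes with the profile most like that of the 8 genes were sought among 6977 other genes with a mean of at least 5 RPKM. Each profile was log2(RPKM + 1) centred on its mean over the 6 libraries, and likeness was the root mean square difference from the mean profile of the 8 genes. Nlrc5 was the nearest, with a difference of 0.107, followed by I830012O16Rik (0.112), the nuclear noncoding RNA Neat1 (0.142), the interferon-induced antiviral enzyme gene Oas1a (0.148) and the interferon-inducible GTPase gene Gvin1 (0.189). All 5 were called higher in young adult EC, with log2 fold changes between 2.34 and 2.57, which follows from their selection by this profile. Nlrc5 and I830012O16Rik, under 5 RPKM in every infant library, passed the filter on the mean only through their young adult values. Oas1a read 2.2, 6.8 and 2.5 RPKM in infant EC and 25.7, 19.4 and 26.4 RPKM in young adult EC. The mean of its infant values was under 5 RPKM, so that Oas1a too passed the filter through its young adult values. The points of these profiles share the libraries and their composition, and the order of genes is a description.

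**Figure D5:**
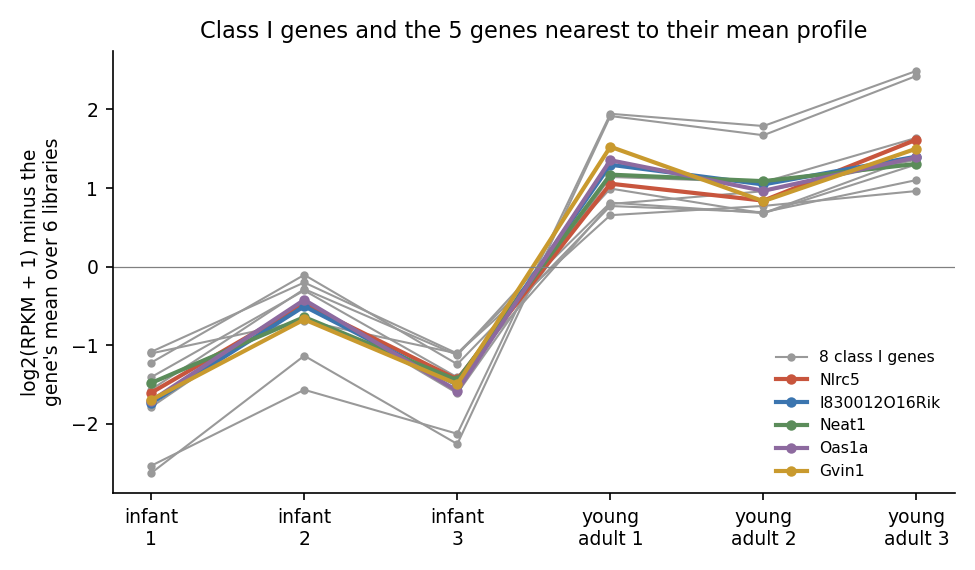
Log2(RPKM + 1) of each gene minus its mean over the 6 libraries, with 1 grey line for each of the 8 class I genes and coloured lines for the 5 other genes nearest to their mean profile. The coloured lines run within the grey band, with a local high point at infant replicate 2.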

How the data were processed

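EC were sorted by flow cytometry, and RNA was amplified with the SMARTer Ultra Low kit and sequenced in paired reads. Per the study's methods and the submitters' processing notes, the authors aligned reads to mm10 with STAR, allowing up to 10 mismatches, and tested genes with DESeq2 on the RefSeq annotation. The deposited values were RPKM per transcript and library, rounded to 1 decimal. The program that computed RPKM was not given in the sources used here. The RPKM summed to between 362970 and 428155 per library, and read numbers are unknown, so no counting error was attached.

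For each gene the transcript with the highest mean RPKM was kept. The 12458 genes with at least 1 RPKM in at least 1 library were tested with limma 3.58.1 in R 4.3.3 (lmFit, eBayes with trend) on log2(RPKM + 1), with a term for age alone and p-values adjusted by Benjamini-Hochberg over all genes. Calls needed an adjusted p under 0.05 and a log2 fold change beyond 0.81, the study's fold threshold. Ratios within libraries were compared with exact two-sided permutation tests in scipy 1.17.1. The script was tested on simulated data. Groups and replicate numbers came from the sample titles. Named genes were the 8 class I genes, tested genes of the lists, sorting antigens and the 5 genes of nearest profile. The genes and lists were chosen with earlier results of these data known, and a regulator of the original list is not reported here, so that the list's counts and median cover the others. Stretches of 100 bases were compared between GENCODE transcripts. Alternatives were other pseudocounts, filters, scalings, variance models, thresholds, transcript handling, a replicate block and leaving out each library, and scaling to endothelial markers was added after seeing the data.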

Additional observations from a re-analysis of the deposited data

How the results depend on the processing

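Under 20 of 21 alternatives to the test the 8 class I genes were all called higher, each library left out included. The exception was limma treat, which tests whether a change exceeds the fold threshold, and which called 4 of 8 (H2-K1, H2-Q4, H2-Q6 and H2-Q7), with adjusted p of 0.176 for B2m, 0.116 for H2-D1, 0.282 for H2-T23 and 0.189 for H2-M3. It called 176 instead of 1424 genes, 1 other class I heavy chain (H2-Q5), 1 regulator instead of 4 (Nlrc5) and 0 peptide loading genes instead of 4. A pseudocount of 5 gave 578 genes and 4 other class I heavy chains instead of 8. Scaling to endothelial markers, which shifted the median of all genes by -0.42 on the log2 scale, gave 2627 genes, 4 other class I heavy chains, 1 regulator (Nlrc5) and 1 peptide loading gene (Tap1). Quantile normalization shifted that median by 0.12 and rescaling without globin genes by -0.16. Leaving out 1 library gave between 842 and 1874 genes. The count was 927 and 949 when infant replicates 1 and 3 were left out, and 842 and 867 when the young adult replicates 1 and 2 were. Quantile normalization turned the log2 difference in the ratio of summed heavy chains to B2m from 0.17 to -0.45, and the cause was not tested. Summing all transcripts turned the difference in class Ib share from -1.15 to 2.21 percentage points, because H2-Q7 then counts 3 times. Deviations of same-numbered libraries had correlations of 0.03, -0.11 and -0.02, within the range of the other pairs (-0.12 to 0.11). With 3 libraries per age, each centred on the mean of its age, these values cannot tell whether the replicate numbers pair the samples. With the replicate block 1371 genes and 8 of 8 class I genes were called, and no other call count moved. The read depth of each library is unknown, and values near 1 RPKM carry a rounding step of 0.1.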
